A study of Homo sapiens with 2 samples.

Results

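Nuclear pseudogene copies of mitochondrial genes were described in CLIP-seq libraries of the human tRNA methyltransferase hTrmt13 (TRMT13) from MDA-MB-231, an established breast carcinoma cell line. The copies were taken as the listed features that lie outside the mitochondrial chromosome (chrM), are typed as pseudogenes and are named by the symbol of a mitochondrial mRNA or rRNA gene followed by P and a number. This rule found 9 of 741078 listed features. The tables list most pseudogenes under the name of the clone they were sequenced from. A look-up of the Ensembl gene IDs in GENCODE release 29 found 386 more pseudogenes outside chrM with such a symbol, for example RP11-461G12.3, which is MTND6P3. Together they made 395 copies, out of 15071 pseudogenes outside chrM. The 9 copies named by their symbol are given first, each with its values, and the 395 are given after them. The larger set was added after the data were seen. The comparison was with the 15 parent genes on chrM, 13 mRNAs and 2 rRNAs. The rRNA genes MT-RNR1 and MT-RNR2 had 0 copies in the set, so 13 parents had copies.

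In CLIP-seq, a protein is isolated with an antibody together with the RNA crosslinked to it, and that RNA is sequenced. There was 1 group with 2 replicates, and the labels name no treatment and no genetic change. No input or antibody control library was analysed here (0 of 2 libraries), so counts give recovery alone and no enrichment. Nothing in the labels ties the replicates to separate cultures, and the spread between them may be technical. Each replicate had a count table for each read mate (R1 and R2). The R1 tables held 27907799 and 20590398 counts and the R2 tables held 11246823 and 8793089. Among markers of the cell line, VIM stood at 24.4 CPM (CPM is the count divided by the library total, on a fixed scale) and MSN at 11.4 CPM, while CD44 and AXL stood at only 0.385 and 0.578 CPM. PGR, the progesterone receptor gene that this line is known to lack, stood at 0.0971 CPM. Of other genes known to be low in the line, ESR1 stood at 0.557, EPCAM at 1.01, CDH1 at 1.96 and ERBB2 at 6.92 CPM, in part above CD44 and AXL, so the marker list as a whole did not follow the profile known for the line. Among markers of other cells ALB stood at 0, PTPRC at 0.331 and HBB at 0.381 CPM.

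Pieces of the mitochondrial genome have been copied into the nuclear chromosomes many times during evolution. The copies are called nuclear mitochondrial insertions, and the annotation lists each gene-sized stretch of one as a pseudogene. They are not translated into working respiratory chain proteins, since mitochondria read some codons differently and the copies have gathered mutations. Because a young copy is close to its parent in sequence, a short read from a mitochondrial RNA can match both, and how the authors assigned such reads is not given in the sources used here. A count of a copy therefore cannot be told apart from reads of its parent by these tables alone.

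Sequences of 3 of the 9 copies are shown beside their parents to let the distance be seen base by base. Each line is the RNA-sense strand in DNA letters, 90 bases long, and capitals mark the bases at which copy and parent differ. The sequences are GENCODE release 29 transcripts on GRCh38, whereas positions are those of the tables, on hg19. The first 90 bases of MTATP6P2 (chr5:99387624-99388301, minus strand) and of MT-ATP6, which encodes a subunit of the ATP synthase, differed at 8 bases. The first 90 of MTND5P10 (chr5:99382681-99384489, minus strand) and of MT-ND5, a subunit of complex I (the NADH dehydrogenase), differed at 18. Bases 34 to 123 of MTND1P14 (chr17:19505572-19506521, plus strand) and of MT-ND1, another complex I subunit, also differed at 18.
MTATP6P2: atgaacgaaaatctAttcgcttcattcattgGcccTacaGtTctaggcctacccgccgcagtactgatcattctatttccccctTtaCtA
MT-ATP6: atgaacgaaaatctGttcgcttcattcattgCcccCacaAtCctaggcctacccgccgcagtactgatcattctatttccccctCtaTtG
MTND5P10: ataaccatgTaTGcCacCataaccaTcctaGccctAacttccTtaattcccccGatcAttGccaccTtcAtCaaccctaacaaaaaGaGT
MT-ND5: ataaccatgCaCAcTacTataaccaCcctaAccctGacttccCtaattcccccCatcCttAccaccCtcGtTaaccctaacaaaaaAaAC
MTND1P14: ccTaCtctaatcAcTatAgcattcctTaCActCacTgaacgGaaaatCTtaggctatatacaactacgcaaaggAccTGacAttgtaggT
MT-ND1: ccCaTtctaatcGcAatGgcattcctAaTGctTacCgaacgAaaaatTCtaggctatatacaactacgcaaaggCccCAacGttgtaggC

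The 9 named copies were recovered at low levels, and nearly all of their counts came from a pair of copies on chromosome 5. MTATP6P2 had 43 R1 counts in replicate 1 and 64 in replicate 2, and 24 and 44 in R2. This was a level of 2.32 ± 1.11 CPM (SD, n = 2), or 3.43 ± 1.63 CPM per kilobase. MTND5P10 had 27 and 52 R1 counts and 41 and 46 R2 counts, a level of 1.75 ± 1.10 CPM (SD, n = 2), or 0.965 ± 0.609 CPM per kilobase. Both had fewer R1 counts in replicate 1, the deeper library. They were the only members of the 9 with a mean R1 count of at least 10, the minimum used here for calling a copy recovered. That is 22.2% of the 9, against 12.9% of the other 14676 pseudogenes outside chrM and 2.53% of all listed features, most of which are piRNAs. Among features other than piRNAs the share was 30.5%. A share of 2 in 9 is too few to be set apart from 12.9%.

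The other 7 named copies lay at or near 0. MTND5P26 (chrX:102057969-102061066, plus strand) had 7 and 8 R1 counts and 6 and 6 R2 counts, a level of 0.320 ± 0.0974 CPM (SD, n = 2). It lies inside the long non-coding RNA gene LL0XNC01-157D4.1, which held 1690 and 1269 R1 counts. MTND1P14 had 0 and 3 R1 counts and none in R2 (0 and 0). Its neighbour MTND2P12 (chr17:19507110-19508361, plus strand), a copy of another complex I gene, had 0 and 1 R1 counts and 0 and 1 R2 counts. MTND1P15 (chr17:22024064-22025012, plus strand) had 0 and 0 in R1 and 1 and 0 in R2. A gene that overlaps it on the other strand, RP11-846F4.12, held 324 and 248 R1 counts but 2 and 2 R2 counts. MTCO3P1 (chr6:32673901-32674732, minus strand), MTND1P12 (chr9:42779843-42779998, plus strand) and MTND1P13 (chr22:24347904-24349416, plus strand) had 0 counts in all 4 tables. MTCO3P1 copies the gene of a cytochrome c oxidase (complex IV) subunit, and the other pair copies MT-ND1. A count of 0 allows a level of up to 0.107 CPM in replicate 1 and 0.146 CPM in replicate 2 (3 counts), so low levels of these copies were not detectable at this depth. With any R1 count at all, 5 of the 9 were seen, against 54.8% of the other pseudogenes.

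**Figure D1:**
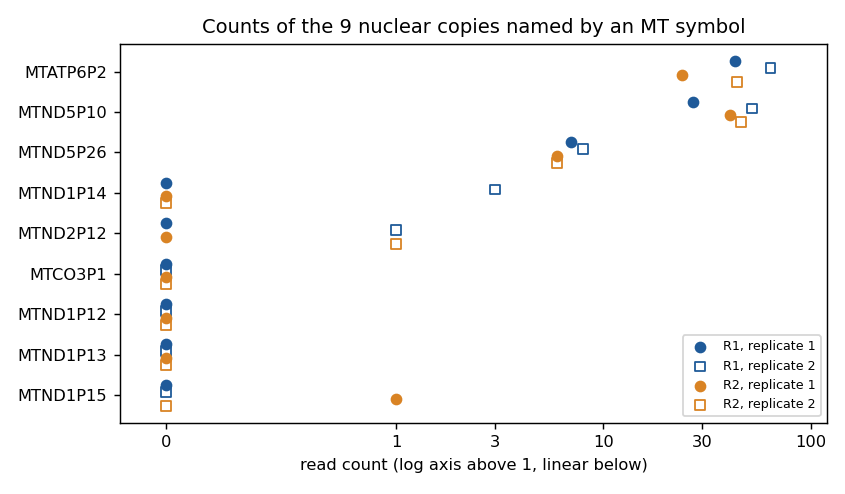
R1 and R2 counts of the 9 copies named by an MT symbol, with 1 point per replicate and mate, on an axis that is linear below 1 and logarithmic above. MTATP6P2 (43 and 64 R1 counts) and MTND5P10 (27 and 52) stand above the rest, and 3 copies sit at 0 in all 4 tables.

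Summed, the 9 copies held 77 and 128 R1 counts and 72 and 97 R2 counts. This was 2.76 CPM in replicate 1 (95% Clopper-Pearson interval 2.18 to 3.45) and 6.22 CPM in replicate 2 (5.19 to 7.39), with a mean of 4.49 ± 2.44 CPM (SD, n = 2). The intervals do not overlap, and they cover counting error only, since reads that are PCR copies of the same molecule are not independent. Scaled by total counts, as CPM is, the 18723 features tested further on had a median log2 ratio (replicate 2 over replicate 1) of 1.09. The higher level in replicate 2 was thus not particular to the 9 copies. Of the counts of these copies and their 5 parents together, the copies held 1.18% (0.933 to 1.47%) in replicate 1 and 1.53% (1.28 to 1.82%) in replicate 2, a mean of 1.36% ± 0.249 (SD, n = 2). The share was 0.649% without MTATP6P2. Per kilobase, MTATP6P2 stood at 4.68% of MT-ATP6 in R1 and 3.18% in R2. MTND5P10 stood at 1.95% of MT-ND5 in R1 and 2.49% in R2, and MTND5P26 at 0.209% in R1. The value of MTND5P26 was divided by its listed span of 3098 bases, whereas its sequence has 1752, which lowers it. Each parent thus stood far above its named copies per unit of length.

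The pair on chromosome 5 belongs to 1 run of neighbouring copies. Runs were drawn by joining copies on a chromosome that lie no more than 10 kb apart, since such copies can come from a single insertion and are not independent. The run (chr5:99381632-99390749, 9118 bp) held 10 copies. In chromosome order they were MTCYBP22, MTND6P22, MTND5P10, MTND4P35, MTND4LP5, MTND3P19, MTCO3P22, MTATP6P2, MTCO2P22 and MTCO1P22. This is the order of the parents on chrM read backwards, with MTND6P22 alone on the plus strand, as MT-ND6 alone among these parents is on the opposite strand of chrM. The 10 copies were 85.7 to 91.3% identical to their parents. MTATP6P2 and MTND5P10 together made up 90.8% ± 0.201 (SD, n = 2) of the counts of the 9 named copies. When runs were drawn from the 9 named copies alone with a largest gap of 1 kb, this pair fell into separate runs, since the copies between them were left out, and the higher of the pair held 52.9%.

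Across that run the copies did not stand at 1 level. MTCO2P22 (chr5:99388563-99389243, minus strand), a copy of the gene for a complex IV subunit, had 461 and 368 R1 counts and 66 and 62 R2 counts. At 25.3 ± 1.41 CPM per kilobase in R1 (SD, n = 2) it stood at 25.7% of MT-CO2, but in R2 it stood at 4.86%. MTCO1P22 next to it had 103 and 169 R1 counts and stood at 2.31% of MT-CO1 in R1. MTND4P35 (41 and 52 R1 counts), MTCO3P22 (13 and 32), MTND4LP5 (8 and 6), MTND6P22 (3 and 5) and MTND3P19 (2 and 1) lay between 0.956% and 1.84% of their parents, and MTCYBP22 had 0 in R1. MTCO2P22 was the only copy of the run to pass the test of the split between replicates, given further on. In all, 6 of the 10 were recovered, and the run held 701 and 749 R1 counts.

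**Figure D2:**
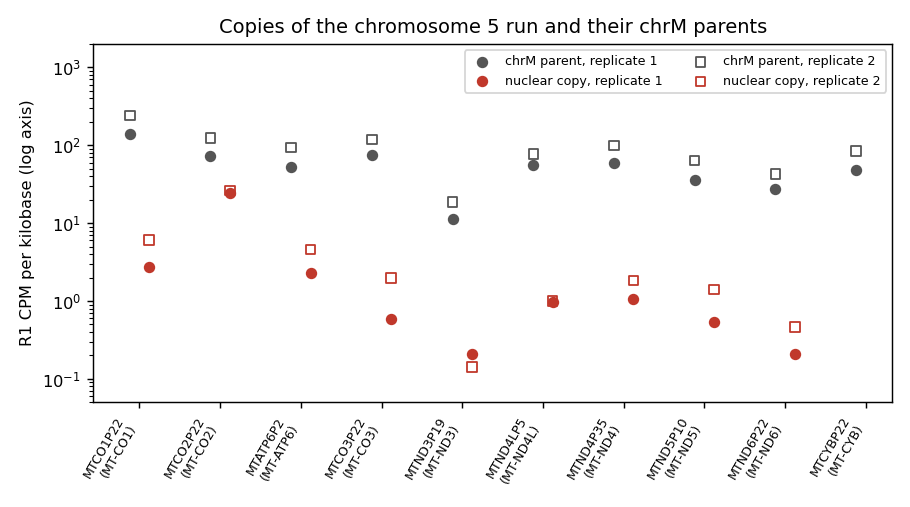
R1 CPM per kilobase of the copies of the chromosome 5 run (red), each beside its chrM parent (grey), on a log axis, with 1 point per replicate (filled for replicate 1, open for replicate 2). The parents lie above their copies in each pair, MTCO2P22, with a mean of 25.3 CPM per kilobase, is the highest copy, and MTCYBP22, at 0, has no point.

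The other named copies with a sequence lay in runs or alone. MTND5P26 sat in a run of 10 copies on the X chromosome (22158 bp) that were 65.1 to 73.8% identical to their parents, and that run held 27 and 30 R1 counts in all. MTND1P14 and MTND2P12 shared a run with MTCO1P39 (0 and 4 R1 counts over 3 copies). MTND1P15 lay in a run of 5 copies with 0 and 2 R1 counts. The MT-ND1 copies MTND1P14 and MTND1P15 were 76.8% and 82.1% identical to MT-ND1 over 943 and 945 bases. MTND1P12 matched over 141 bases at 80.1%, and MTCO3P1 over 683 bases at 78.0%. MTATP6P2 and MTND5P10, the named copies with the most counts, were also those closest to their parents, at 88.2% over 678 bases and 87.7% over 1809 bases. MTND5P26, with the third highest count, was the farthest at 69.7% over 1010 bases. MTND1P13 was not in GENCODE release 29 and no sequence of it was used here.

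Over all 395 copies the picture was one of many copies at 0 and a few high ones. No R1 count was found for 270 of them, and 254 were at 0 in all 4 tables. At least 1 R1 count was found for 125 (31.6%), against 54.8% of the other pseudogenes and 64.2% of all features other than piRNAs. A mean R1 count of at least 10 was found for 34 (8.61%), against 12.9% of the other pseudogenes and 30.5% of all features other than piRNAs. The median level was 0 CPM, beside 0.0243 CPM for the other pseudogenes and 0.0486 CPM for 395 pseudogenes of cytosolic ribosomal protein genes, of which 72 passed the minimum. MTATP6P2, MTND5P10 and MTND5P26 ranked 19, 22 and 39 among the 395. The chrM parents lay far above. The 13 mRNAs had a median of 56.5 CPM, or 66.6 CPM per kilobase, and the 22 chrM tRNAs a median of 441 CPM. Of 22 nuclear genes that encode subunits of the same respiratory complexes, 22 passed the minimum, with a median of 5.46 CPM, or 0.503 CPM per kilobase. Length was the whole listed span, introns included, with a median of 13219 bases for these genes and 784 for the chrM mRNAs. The values per kilobase of these lists are therefore not like for like. Just inside the minimum of 10 were MTCO3P24 (13 and 11), MTCO1P53 (2 and 20) and MTCO1P42 (10 and 12). Just outside were MTCO3P8 (8 and 11), MTCO1P6 (6 and 13) and MTND5P12 (10 and 8).

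The sum over the 395 rested on 3 copies. MTND6P3 (chr5:93904634-93905175, minus strand) had 34488 and 30272 R1 counts, a level of 1353 ± 166 CPM (SD, n = 2). Its parent MT-ND6, a complex I subunit gene, had 402 and 464. MTCYBP36 (listed as RP3-399J4.1, chr6:95156458-95156897, minus strand), a copy of part of the complex III gene MT-CYB, had 5638 and 4185 R1 counts, or 203 ± 0.868 CPM. MTND2P6 (RP11-1217F2.8, chr7:57254119-57255148, plus strand), a copy of a complex I gene, had 3398 and 2360, or 118 ± 5.05 CPM. With them, the 395 copies held 46942 and 41661 R1 counts, or 67.6% ± 5.43 (SD, n = 2) of the counts of copies and the 13 parents together. Without MTND6P3 the share was 36.1%, and without all 3 it was 16.2%.

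These 3 copies also stood apart in the other mate. MTND6P3 had 194 and 140 R2 counts, which is 0.563% and 0.462% of its R1 counts. MTCYBP36 had 44 and 46 R2 counts, and MTND2P6 had 7 and 6. They were the only recovered copies whose R2 count was under 5% of the R1 count in both replicates, a limit chosen after the data were seen. The other 31 recovered copies had a median R2 count of 55.8% of R1 in replicate 1 and 55.4% in replicate 2. The 15 parents had 78.0% and 84.1%, and over all features R2 came to 40.3% and 42.7% of R1. Among the parents, the rRNA gene MT-RNR1 had a low R2 share as well, 2.55% and 2.14%. In R2 the 395 copies held 12.9% of the counts of copies and parents together.

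**Figure D3:**
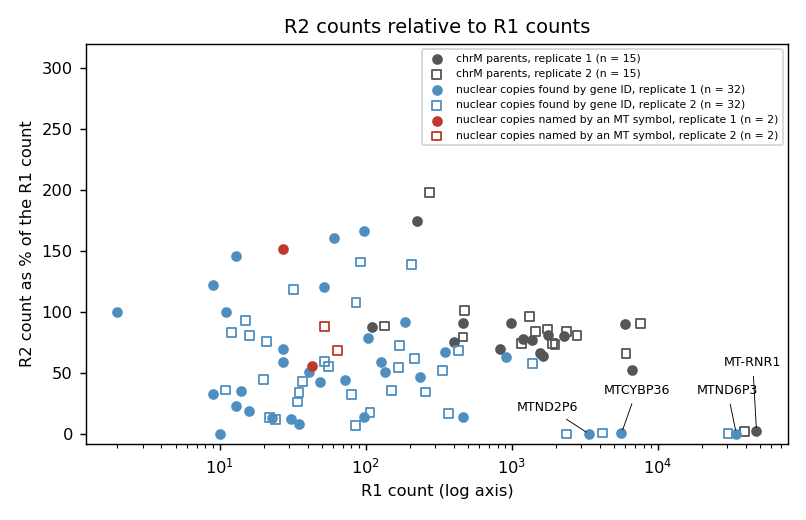
R2 count as a percentage of the R1 count against the R1 count (log axis) for the 34 recovered copies and the 15 chrM parents, with 1 point per replicate (filled for replicate 1, open for replicate 2). MTND6P3, MTCYBP36, MTND2P6 and the parent MT-RNR1 lie along the bottom at high R1 counts, while the median of the other 31 copies is 55.8% in replicate 1 and 55.4% in replicate 2.

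The sequences of the first pair of these copies hold bases of mitochondrial tRNAs, which is why they are shown. The first 57 bases of MTCYBP36 matched bases 12 to 68 of MT-TM, the mitochondrial methionine tRNA gene, at 93.0% identity with 4 differing bases (capitals). Among the 394 copies with a sequence it was the only one with a BLAST match to a chrM tRNA. MT-TM itself had 15710 and 10066 R1 counts and 6741 and 4998 R2 counts.
MTCYBP36: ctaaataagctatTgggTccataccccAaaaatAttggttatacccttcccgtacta
MT-TM: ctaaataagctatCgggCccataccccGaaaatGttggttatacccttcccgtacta
MTND6P3 opens with 4 bases (capitals) that precede its match to MT-ND6, and these equal the last 4 bases (capitals) of MT-TE, the glutamate tRNA gene that ends where MT-ND6 begins. The first 60 bases of MTND6P3, the whole of MT-TE and the first 56 bases of MT-ND6 are given.
MTND6P3: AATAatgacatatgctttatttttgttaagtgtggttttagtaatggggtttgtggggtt
MT-TE: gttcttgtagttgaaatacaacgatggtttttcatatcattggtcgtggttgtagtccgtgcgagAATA
MT-ND6: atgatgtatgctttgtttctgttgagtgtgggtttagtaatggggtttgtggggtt
At least 3 such bases, all equal to the tRNA next to the parent, were found in 3 copies. The other pair, MTND6P33 and MTND6P7, had 3 such bases each and 0 counts. Whether such bases bear on the counts was not tested.

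MTND6P3 lies in a run with MTND5P12 and MTCYBP35, inside the nuclear gene KIAA0825. On chrM, MT-TE, 69 bases long (14674 to 14742), lies between MT-ND6, which ends at 14673, and MT-CYB, which starts at 14747. On chromosome 5 a gap of 69 bases separates MTND6P3 from MTCYBP35. The 4 bases equal to the end of MT-TE lie within MTND6P3, outside the gap. On chrM a few bases separate MT-TE from MT-CYB. The gap thus has room for the rest of MT-TE and those few bases, rather than for MT-TE alone. The sequence of the gap was not examined, so whether it holds them was not tested. KIAA0825 held 34771 and 30736 R1 counts, and MT-TE held 34637 and 30666. In R2 KIAA0825 held 48113 and 41253, and MT-TE 47946 and 41384. The ratio of the gene to MT-TE was 100.4% and 100.2% in R1 and 100.3% and 99.7% in R2. MTND6P3 is on the strand of KIAA0825, and the other pair of copies is on the opposite strand. Set beside KIAA0825, the 3 copies of the run summed to 99.2% and 98.5% of its R1 counts, but to 0.436% and 0.395% of its R2 counts. MTND6P3 and KIAA0825 thus stood together in R1 and far apart in R2. Whether reads of MT-TE are counted in KIAA0825 and MTND6P3 was not tested, and the tables hold no read positions.

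**Figure D4:**
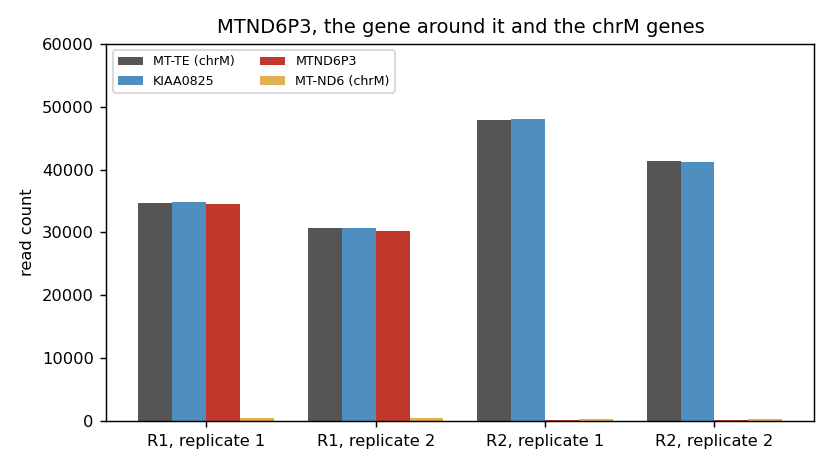
Read counts (bars, from 0) of MTND6P3, the gene around it KIAA0825, the tRNA gene MT-TE and the parent MT-ND6 in R1 and R2 of both replicates. KIAA0825 stands at 99.7 to 100.4% of MT-TE in the 4 tables, while MTND6P3 falls from 34488 and 30272 in R1 to 194 and 140 in R2.

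Other copies lay within the span of genes with far higher counts, most on the other strand. On chromosome 1, 7 copies (chr1:564442-570302, 5861 bp) lay within RP11-206L10.17, on the strand opposite to it. They had 1480 and 2357 R1 counts, beside 103680 and 72806 for that feature. Within PCBD2, 6 copies, all but MTND6P4 on the other strand, had 557 and 720 R1 counts beside 26051 and 19682. MTCO1P2, with 347 and 431, lay within AKAP6 on the other strand, which had 31280 and 25011. Since the use of strand is not known, whether the counts of these genes include those of the copies was not tested. Altogether 159 of the 395 copies, and 18 of the 34 recovered, were enclosed in another listed feature, and 0 overlapped a listed nuclear tRNA feature.

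The chromosome 1 run was the highest run in R2, where it held 45.1% and 46.2% of the counts of all 395 copies. Its members MTND1P23, MTND2P28, MTCO1P12, MTCO2P12, MTATP8P1, MTATP6P1 and MTCO3P12 were 97.6 to 99.1% identical to their parents, and 7 of 7 were recovered. MTCO1P12 (chr1:566454-567996, plus strand) led with 916 and 1388 R1 counts and 579 and 803 R2 counts, at 50.1 ± 24.5 CPM (SD, n = 2). It was 98.6% identical to MT-CO1, the gene of the catalytic subunit of complex IV, and over the first 90 bases, shown here, copy and parent do not differ. It stood at 17.2% of MT-CO1 per kilobase.
MTCO1P12: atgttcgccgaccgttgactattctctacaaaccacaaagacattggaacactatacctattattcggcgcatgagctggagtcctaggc
MT-CO1: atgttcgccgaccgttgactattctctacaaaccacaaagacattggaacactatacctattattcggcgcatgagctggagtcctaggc

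The copies closest to their parents were recovered most often. Of 11 copies at 95% identity or more, 11 were recovered, though 7 of them belong to the chromosome 1 run. From 90 to 95%, 7 of 10 were recovered. From 80 to 90% it was 8 of 35 (22.9%), and below 80% it was 8 of 336 (2.38%). The limits of these classes were chosen after the data were seen, and the upper pair hold few copies. Taken as 1 class, 18 of 21 copies at 90% or more were recovered, from 8 runs or single sites. Over the 392 copies with a match to their parent, identity and the log2 of R1 CPM per kilobase (with 0.01 added) had a Spearman rho of 0.341 and a Pearson r of 0.643. In R2 these were 0.399 and 0.677. Without the 3 highest copies the R1 values were 0.350 and 0.704. The copies share libraries, many share a run, and 270 of them are tied at 0, so these values are descriptions. MTCYBP36 (70.4%) and MTND2P6 (73.1%) lay far above other copies of like identity.

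**Figure D5:**
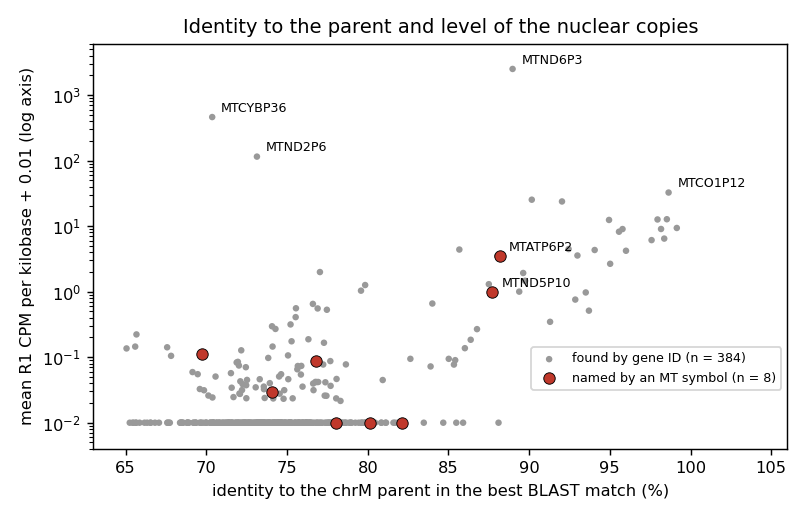
Mean R1 CPM per kilobase plus 0.01 (log axis) against identity to the chrM parent for the 392 copies with a match, with the 8 named copies that have one in red. Copies without counts line the bottom at 0.01 up to about 88% identity, every copy from 90% up lies above that line, and MTND6P3, MTCYBP36 and MTND2P6 stand above the rest.

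By parent, the share of counts held by copies ran from 6.66% to 98.7% in R1, and in percentage points the mates differed most in the families of the 3 highest copies. The 27 copies of MT-ND6 held 98.7% ± 0.252 (SD, n = 2) of the R1 counts of copies and parent, and 35.9% of the R2 counts. For MT-ND2 (34 copies) the values were 75.0% ± 8.48 and 24.7%, and for MT-CYB (42 copies) 73.6% ± 7.15 and 12.8%. The complex IV families lay lower. Copies of MT-CO2 held 29.9% ± 4.37 in R1 and 16.3% in R2, those of MT-CO1 21.9% ± 1.92 and 16.0%, and those of MT-CO3 8.21% ± 2.76 and 6.34%. Among ATP synthase genes, copies of MT-ATP6 held 17.6% ± 3.16 and 9.73%, and the 2 copies of MT-ATP8 16.3% ± 2.12 and 2.11%. Among the remaining complex I genes the R1 shares were 17.5% ± 1.81 for MT-ND4L, 12.0% ± 0.909 for MT-ND4, 9.15% ± 0.437 for MT-ND5, 7.03% ± 2.92 for MT-ND3 and 6.66% ± 2.62 for MT-ND1 (SD, n = 2 each). MT-ND5, the parent of MTND5P10 and MTND5P26, was the family with the closest R1 and R2 shares, 9.15% and 8.90%.

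The highest copy of each family was MTND6P3, MTCYBP36 and MTND2P6 for the first 3 families. For complex IV it was MTCO1P12, MTCO2P22 and MTCO3P12 (72 and 150 R1 counts). For the ATP synthase it was MTATP6P1 (136 and 256) and MTATP8P1 (23 and 35). For the other complex I genes it was MTND4P12 (236 and 336), MTND5P11 (127 and 171), MTND4LP30 (97 and 80), MTND1P23 (49 and 107) and MTND3P25, at 0.258 CPM. Copies of MT-CO1 made up 11 of the 34 recovered, and MT-CO1 also had the most copies, 45 of 395.

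The split of each copy between the replicates was compared, with a two-sided exact binomial test, with the ratio of TMM-scaled library sizes, with Benjamini-Hochberg adjustment over 18723 features. It compares these libraries and no conditions. Over all features 8.8% passed at 0.05, with 2.29% higher and 6.52% lower in replicate 2. MTATP6P2 (log2 ratio -0.08, adjusted p = 0.949, exact binomial test) and MTND5P10 (log2 ratio 0.28, adjusted p = 0.761, exact binomial test) did not pass, so 0 of 2 named copies did, and 0 had an unadjusted p under 0.05. Scaled by total counts instead, 2 of 2 passed as higher in replicate 2. That scaling moves the median log2 ratio of all features from 0.00 to 1.09, and 15221 of the 18723 features then pass as higher. Of all 34 recovered copies 8 passed. MTND6P3 (log2 ratio -0.84), MTCYBP36 (-1.08), MTND2P6 (-1.18), MTCO2P22 (-0.98), MTND4LP30 (-0.93), MTCO2P12 (-0.45) and MTCO1P2 (-0.34) were lower in replicate 2, and MTCO1P53, with 2 and 20 counts, was higher. Under total counts 25 copies passed as higher and 1 as lower. Of the 15 parents, 13 passed as lower under TMM, with a median log2 ratio of -0.37, and 15 as higher under total counts. The direction for the parents thus reversed with the scaling. By CPM, which divides by total counts, MTND6P3 stood at 1236 and 1470 and MTCYBP36 at 202 and 203, and of the 7 lower copies only MTND2P6 was still lower in replicate 2, at 122 and 115.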

How the data were processed

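RNA recovered with hTrmt13 was measured by CLIP-seq in 1 group of MDA-MB-231 cells with 2 replicates. The authors deposited raw read counts per listed feature, in 4 tables (2 mates of 2 libraries). The tools were bedtools 2.24.0 and Bowtie2 2.3.5.1, on hg19 (GRCh37), per the submitters' processing notes. For alignment options, the use of strand and reads with several matches, the answer is not given in the sources used here. Reads of near-identical copies are therefore uncertain.

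Each table has 741091 lines, and 13 repeated lines were dropped. CPM was computed from the R1 totals, with exact Clopper-Pearson 95% intervals. Copies were matched by Ensembl gene ID to GENCODE release 29 (394 of 395). Their transcripts were compared with the 37 chrM transcripts by blastn 2.17.0 (word size 7, e-value 0.001), and identity is that of the best match to the parent. Of 394 sequences, 357 had the length of the listed hg19 span. TMM factors came from edgeR 4.0.16 (R 4.3.3), and DESeq2 1.42.0 size factors were an alternative. Other software was scipy 1.17.1, Python 3.11.15, pandas 2.3.3, matplotlib 3.10.9 and numpy 2.4.6.

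The members and lists were chosen with earlier results of these data known. Named are the recovered copies (the 30 highest), the highest copy of each parent, the parents, the members of the highest run, the features that overlap these, and 3 copies on each side of the minimum. The 9 copies named by symbol, MTND6P33, MTND6P7, MTCO1P39 and the neighbours of named copies within their runs were added after their values were seen. Alternatives were mates summed, the R2 table, other minimum counts, other totals, counts per kilobase, other gaps, other scalings and each replicate left out.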

Additional observations from a re-analysis of the deposited data

How the results depend on the processing

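No paired analysis was possible because the only group has no counterpart to pair with. For the 9 named copies, 4 passed a minimum mean count of 1 and 1 passed 50. Their summed CPM was 8.72 in R2, 7.68 with the 10 highest features out of the total and 10.6 with tRNA features out of it. Their share of copies plus parents was 0.649% without MTATP6P2. MTATP6P2 and MTND5P10 together held 91.5% in R2 and 91.1% with mates summed. With a gap of 1 kb and runs drawn from the 9 alone, which leaves out the copies between this pair, the highest run held 52.9%. Under total counts 2 copies passed the split test.

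For all 395 copies, 77 passed a minimum of 1 and 19 passed 50. Summed CPM was 274.5 in R2, 1389 with mates summed, 3214 without the 10 highest features, 4422 without tRNA features and 499.7 without MTND6P3. The share was 12.9% in R2, 54.6% with mates summed, 78.5% per kilobase, 36.1% without MTND6P3 and 16.2% without the 3 highest copies. The highest run held 45.6% in R2, where it was the chromosome 1 run, and 69.3% with mates summed. The split test passed 26 copies under total counts, 2 in R2, 5 with a minimum of 1 and 5 with none. The cause was not tested.

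With each replicate left out in turn, the 9 copies gave 2.76 to 6.22 CPM, 1.18 to 1.53% and 90.6 to 90.9%, and the 395 gave 32 to 37 recovered, 1682 to 2023 CPM, 63.7 to 71.4% and 72.7 to 73.5%. Of 73 alternative values of these summaries 45 stayed within 1 SD (for counts, within 1.5 times) and 28 moved. Of 280 alternative CPM values of single copies and chrM parents 187 stayed within 1 SD, 78 moved up and 15 down. The value of either library alone always lies within 1 SD of the mean of 2 libraries. Alternatives that leave out a replicate thus could not move in CPM or share, yet they are among the values that stayed. With 2 libraries an SD is itself uncertain, and a named copy at 0 may stand at up to 0.146 CPM.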
